A study of Homo sapiens with 12 samples.

Results

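The microRNAs described here are the strands of the miR-26 and miR-101 hairpins, found as every entry whose name begins with hsa-miR-26a-, hsa-miR-26b- or hsa-miR-101-. There were 8 such strands among the 952 microRNAs of both comparisons, 5 from miR-26 hairpins and 3 from miR-101 hairpins. All 8 were among the 837 microRNAs tested for sgCYRANO against sgNT, and 7 were among the 868 tested for ZSWIM8 KO against WT, where miR-101-5p was not listed. Small RNA was sequenced from K562, a human erythroleukaemia line, in 12 libraries that form 4 groups of 3. The sgNT cells received a non-targeting guide RNA and the sgCYRANO cells a guide against CYRANO, a long non-coding RNA whose extensive pairing to miR-7 leads to the loss of that microRNA. WT cells and ZSWIM8 KO cells (genotype ZSWIM8-/-) are labelled as having received no guide, and the latter lack ZSWIM8, the substrate receptor of a ubiquitin ligase needed for such target-directed decay. The triplicates are described as biological replicates of each cell line. The sources used here do not say whether the edited cells were a pool or 1 clone, and triplicates of 1 line do not show the spread between independently edited lines.

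MicroRNAs guide Argonaute proteins to messenger RNAs, mainly through pairing of their seed, the bases 2 to 8, and lower the output of those messages. EZH2 is the catalytic subunit of Polycomb repressive complex 2, which methylates histone H3 on lysine 27 and silences genes. miR-101 and miR-26a are known repressors of EZH2, and loss of either has been tied to high EZH2 in several tumours. The miR-26 hairpins lie in introns of genes for small C-terminal domain phosphatases. From each hairpin one strand is mostly kept as the guide, and the other, the passenger strand, is mostly destroyed.

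The sequences are shown because the seeds decide which strands share targets. All 8 strands, from hsa-miR-26a-5p and hsa-miR-101-3p to hsa-miR-26a-2-3p, were matched by name in RefSeq (GRCh38.p14), and in the lines that follow, 5′ to 3′, capitals mark the seed.
miR-26a-5p: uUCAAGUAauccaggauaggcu
miR-26b-5p: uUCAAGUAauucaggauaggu
miR-101-3p: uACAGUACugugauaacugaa
miR-26a-1-3p: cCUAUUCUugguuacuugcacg
miR-26a-2-3p: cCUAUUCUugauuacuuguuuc
miR-26b-3p: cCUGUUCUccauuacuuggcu
miR-101-5p: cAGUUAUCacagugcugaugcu
miR-101-2-5p: uCGGUUAUcaugguaccgaugc

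The guide strands miR-26a-5p and miR-26b-5p share the seed UCAAGUA and differ by 2 substitutions, C11U and C21U, counted from 1 at the 5′ end with the miR-26a base first, and by the last base of miR-26a-5p. The sources used here do not say how reads that fit more than 1 strand or hairpin copy were counted, so the split between miR-26a-5p and miR-26b-5p is uncertain. The passenger strands miR-26a-1-3p and miR-26a-2-3p share the seed CUAUUCU and differ at 5 positions. miR-101-3p has the seed ACAGUAC, which no other mature human microRNA of the RefSeq table used here holds. The strand miR-26a-5p comes from MIR26A1 (chromosome 3, 37969404 to 37969480, + strand), in an intron of CTDSPL, and from MIR26A2 (chromosome 12, 57824609 to 57824692, - strand), in an intron of CTDSP2. MIR26B (chromosome 2, 218402646 to 218402722, + strand) lies in an intron of CTDSP1. The miR-101-3p sequence lies in MIR101-1 (chromosome 1, 65058434 to 65058508, - strand), which overlaps no other annotated gene, and in MIR101-2 (chromosome 9, 4850297 to 4850375, + strand), in an intron of RCL1 and over an exon of an antisense gene. Hairpin positions are those of GRCh38.p14 and host genes those of GENCODE release 29.

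Matches to these seeds were looked for in the annotated EZH2 transcript EZH2-201, because EZH2 is the reported target that both families share. The 261 bases after its stop codon held the letters TACTTGA, the complement of the miR-26 seed, 1 time, and the letters GTACTGT, the complement of the miR-101-3p seed, 2 times, on the transcript's strand. The sites are written as DNA with the match in capitals.
EZH2 site for miR-26, chr7:148807389-148807412, - strand: aactttgaataaagaaTACTTGAa
EZH2 first site for miR-101-3p, chr7:148807580-148807603, - strand: gcttcaggaacctcgaGTACTGTg
EZH2 second site for miR-101-3p, chr7:148807525-148807548, - strand: attctgaatttgcaaaGTACTGTa
Coordinates are those of GRCh38. The miR-26 match covered bases 250 to 256 after the stop codon, close to the annotated end, and the miR-101-3p matches covered bases 59 to 65 and 114 to 120. Over 16149 protein-coding genes, the first 261 bases after the stop codon held TACTTGA in 1.80% and GTACTGT in 1.31%, while 7 genes (0.0433%) held both. A match describes the letters only, and EZH2 RNA or protein was not measured in these small-RNA libraries.

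**Figure D1:**
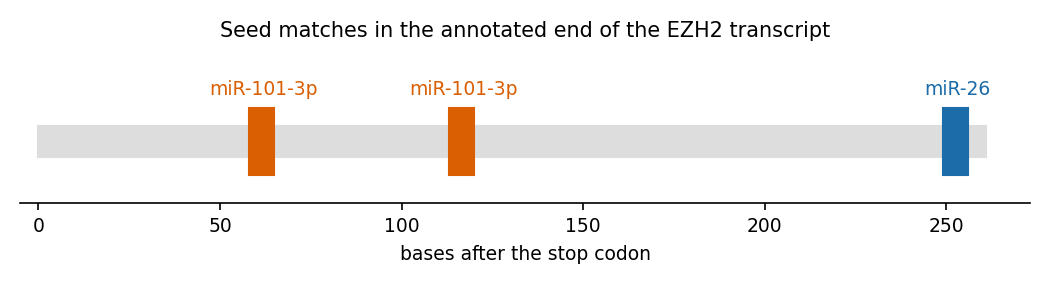
Positions of the seed matches along the 261 bases that follow the stop codon of EZH2-201, with the distance in bases on the x axis. The 2 matches to miR-101-3p (orange) lie at bases 59 and 114 and the match to miR-26 (blue) at base 250.

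The values come from the authors' deposited tables of the 2 comparisons, which hold no value for a single library. Their headers give no direction, so each fold change was taken as perturbed over control, with the control as the group that a table names first. Group means in counts per 1000000 reads (CPM) were recovered from the deposited columns, and library totals, read from the smallest steps in those means, ran from 860000 to 2490000 reads. Each ± gives the standard error that follows from a fold change and its deposited p-value, and intervals are 95% intervals. In the authors' deposited table for sgCYRANO, miR-7-5p, the microRNA that CYRANO targets, rose by 2.52 ± 0.09 on the log2 scale. The authors' deposited table for ZSWIM8 KO gave a rise of 2.35 ± 0.14 for the same strand. Of the erythroid microRNAs, miR-486-5p stood between 11701 and 14449 CPM and miR-451a between 574 and 956 CPM in the 4 groups. The others, miR-144-3p, miR-144-5p, miR-486-3p and the hypoxia-linked miR-210-3p, lay between 93.4 and 748 CPM. In the authors' deposited tables miR-486-3p fell in ZSWIM8 KO (-0.40 ± 0.14, adjusted p = 0.0427), where miR-451a had 0.74 ± 0.62 (adjusted p = 0.583), and miR-210-3p had -0.42 ± 0.12 in sgCYRANO (adjusted p = 0.140). The liver marker miR-122-5p stayed at or under 2.08 CPM, the muscle marker miR-1-3p at or under 1.31 CPM, and the muscle markers miR-133a-3p and miR-206, the neuronal miR-124-3p and the lymphoid miR-150-5p were not listed. The neuronal marker miR-9-5p and the haematopoietic miR-142-3p, grouped here with the lymphoid markers, were present, at 558 to 1396 CPM and 2331 to 2778 CPM. The epithelial markers miR-200c-3p, miR-141-3p and miR-375-3p ranged over 68.8 to 94.6, 0.180 to 1.67 and 3.70 to 49.2 CPM. The highest means of miR-9-5p and miR-375-3p were those of ZSWIM8 KO, against 558 and 3.70 CPM in WT, with adjusted p-values of 0.106 and 0.201 in the authors' deposited table, and their part in the results was not tested.

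K562 cells held far more miR-26 than miR-101. The group mean of miR-26a-5p was 46793 CPM in sgNT and 44507 CPM in sgCYRANO, against 43153 CPM in WT and 45314 CPM in the knockout. It was the 5th most abundant microRNA of the first table and the 6th of the second, and the 4 groups lay close together. miR-26b-5p had 6354 CPM in sgNT and 6043.5 CPM in sgCYRANO, with 5433 CPM in WT and 6124 CPM in the knockout, which placed it 19th in both tables. miR-101-3p had 2549.95 CPM in sgNT and 2100.4 CPM in sgCYRANO, with 2322 CPM in WT and 1974.5 CPM in the knockout, and ranked 34th and 38th. The mean of miR-101-3p was lower in the perturbed cells than in their controls in both comparisons. Cloning of small RNAs depends on their ends, so the order of different microRNAs is that of reads and not of molecules.

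Strands with the miR-26 seed together made up 5.31% of all CPM in sgNT and 5.06% in sgCYRANO, against 4.86% in WT and 5.14% in the knockout. miR-26a-5p supplied 88.0% to 88.8% of that sum. Besides miR-26b-5p, the sum includes miR-4465, a scarce strand that RefSeq lists with the same seed and that stood between 0.505 and 1.42 CPM. The other RefSeq strand with this seed, miR-1297, was listed in neither table, nor was miR-6731-3p, which shares bases 2 to 7 with the miR-26a passenger strands. In the authors' deposited table miR-4465 had 1.21 ± 1.10 in ZSWIM8 KO (adjusted p = 0.612). miR-101-3p shares bases 2 to 7, though not base 8, with the erythroid miR-144-3p.
miR-144-3p: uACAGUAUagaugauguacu
The level of miR-144-3p was 101.6 CPM in sgNT and 93.4 CPM in sgCYRANO, and 119 CPM in WT and 239 CPM in the knockout. Neither difference passed in the authors' deposited tables (edgeR quasi-likelihood test, adjusted p = 0.980 and 0.364).

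The passenger strands were scarce. miR-26a-2-3p had 62.2 CPM in sgNT and 76.2 CPM in sgCYRANO, with 66.5 CPM in WT and 47.3 CPM in the knockout. miR-26b-3p had 34.9, 38.1, 31.9 and 29.3 CPM in the same order, and miR-26a-1-3p 6.82, 6.26, 11.5 and 10.1 CPM. Reads of miR-26a-5p outnumbered those of both its passenger strands together by 678 times in sgNT and 540 times in sgCYRANO, and by 553 times in WT and 789 times in the knockout. For miR-26b the guide strand outnumbered the passenger strand by 159 to 209 times in the 4 groups. MIR26A2 gave the more abundant of the miR-26a passenger strands, with 9.13 times the CPM of miR-26a-1-3p in sgNT and 12.2 times in sgCYRANO, and 5.79 times in WT and 4.66 times in the knockout.

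Of the miR-101 hairpins, the 5p strands were close to the limit of detection. The mean of miR-101-2-5p was 0.419 CPM in sgNT and 0.548 CPM in sgCYRANO, which correspond to 2 and 3 reads over all libraries of each group. In WT and ZSWIM8 KO it was 1.26 CPM each, or 4 and 9 reads. miR-101-5p, from MIR101-1, had 0.289 CPM in sgNT and 0.541 CPM in sgCYRANO, again 2 and 3 reads, which fell in 1 library of each group. A sum of 2 reads in sgNT has an exact Poisson interval of 0.242 to 7.22 reads, and 3 reads in sgCYRANO one of 0.619 to 8.77, for counting error only, so no difference between sgNT and sgCYRANO was detectable for these strands at this depth, and no fold is given for them there.

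**Figure D2:**
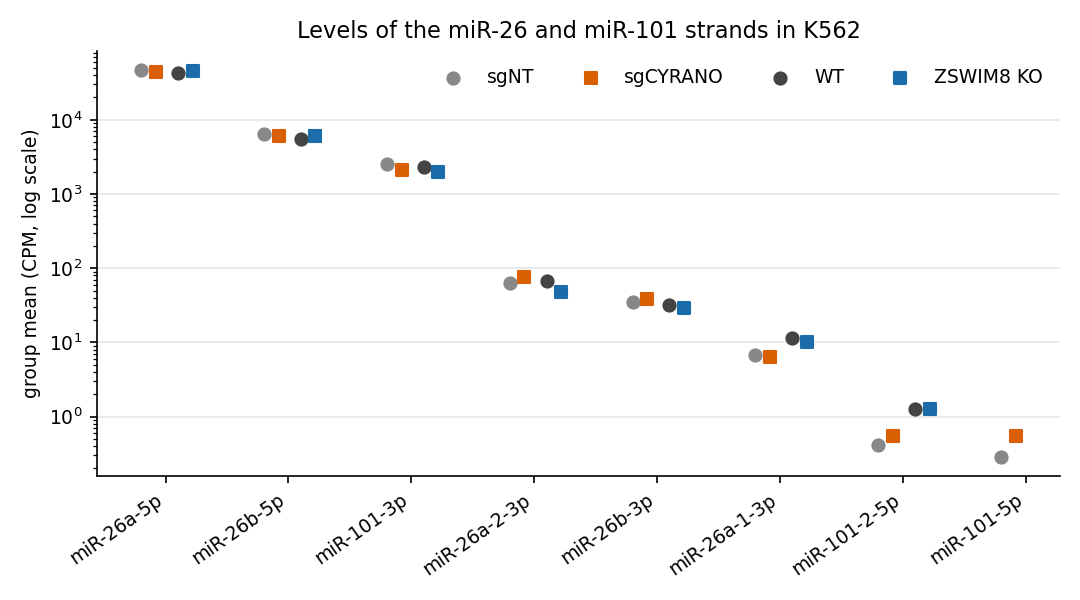
Group mean of each miR-26 and miR-101 strand in CPM (y axis, log scale) in sgNT, sgCYRANO, WT and ZSWIM8 KO cells, 1 point per group. The guide strands miR-26a-5p, miR-26b-5p and miR-101-3p lie at 1974.5 CPM or more in all 4 groups, and every opposite strand lies at 76.2 CPM or less, with miR-101-5p not listed for WT and ZSWIM8 KO.

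The first comparison addresses the effect of the guide against CYRANO on microRNA levels. The authors' deposited table called none of the 8 strands (edgeR quasi-likelihood test, adjusted p under 0.05), beside 0.119% of all 837 microRNAs, the 1 call being miR-7-5p. At an unadjusted p under 0.05 there was 1 strand, miR-101-3p, beside 49 of all 837 microRNAs, or 38 of the 299 at 10 CPM or more. With the deposited F read on 4 denominator degrees of freedom, again none passed, nor did any with microRNAs under 10 CPM left out (0.334% called). The median log2 fold change was 0.026 over the 8 strands, which include the 5p strands of miR-101 with 2 and 3 reads, -0.072 over the 5 strands at 10 CPM or more, and 0.013 over all 837 microRNAs.

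For miR-101-3p the authors' deposited table gave a log2 fold change of -0.28 ± 0.09 in sgCYRANO, a level 0.824 times that of sgNT, with an unadjusted p of 0.00254 and an adjusted p of 0.355. Its p was the 6th smallest of the 837, and its fold change was the lowest of the 52 microRNAs at 1000 CPM or more. The 95% interval ran from 0.726 to 0.934 times the control level. From its means and the group totals, miR-101-3p had an estimated 13997 reads in sgNT and 11109 in sgCYRANO, and counting alone would give an error of 0.018. The deposited error equalled the running median error of 51 microRNAs of like abundance. That median includes the strand itself, so the equality is partly built in and says little about its spread. No value per library was at hand to show the strand's own spread.

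The miR-26 guide strands differed by less than 1 standard error between sgCYRANO and sgNT. The authors' deposited table gave -0.072 ± 0.07 for miR-26a-5p (adjusted p = 0.980) and -0.072 ± 0.09 for miR-26b-5p (adjusted p = 0.980). Their intervals were 0.859 to 1.05 and 0.847 to 1.07 times the control level. Among the passenger strands the authors' deposited table gave 0.29 ± 0.16 for miR-26a-2-3p (adjusted p = 0.876), 0.12 ± 0.19 for miR-26b-3p (adjusted p = 0.984) and -0.12 ± 0.45 for miR-26a-1-3p (adjusted p = 0.984).

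The second comparison addresses the effect of losing ZSWIM8. The authors' deposited table called none of the 7 listed strands (edgeR quasi-likelihood test, adjusted p under 0.05), beside 9.91% of all 868 microRNAs. At an unadjusted p under 0.05 there were 2 strands, miR-101-3p and miR-26a-2-3p, beside 172 of all 868 microRNAs. Both are among the 6 strands at 10 CPM or more, where 129 of 304 microRNAs had such a p. With the deposited F on 4 denominator degrees of freedom none of the strands passed. With microRNAs under 10 CPM left out there was again no call among them, beside 33.6% of all microRNAs (20.4% higher and 13.2% lower). The median log2 fold change was -0.12 over the 7 strands, which include miR-101-2-5p with 4 and 9 reads, and 0.080 over all 868 microRNAs. At 10 CPM or more it was -0.15 over 6 strands and 0.13 over all microRNAs.

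miR-101-3p was again below its control. The authors' deposited table gave -0.23 ± 0.10 in ZSWIM8 KO, a level 0.850 times that of WT, with an unadjusted p of 0.0226 and an adjusted p of 0.143. Here its p was only the 137th smallest of the 868. Its fold change was the 12th lowest of the 52 microRNAs at 1000 CPM or more. In this table the median microRNA at 10 CPM or more stood at 0.13 on the log2 scale. Centred on that median, miR-101-3p had -0.36 ± 0.10 and passed (normal test on the implied error, adjusted p = 0.00611, beside 10.6% of all microRNAs called, 3.46% higher and 7.14% lower). Centred on a trimmed mean it had -0.38 (adjusted p = 0.00312, beside 10.5% called, 3.23% higher and 7.26% lower), so the call depends on the scaling, while the direction held under each scaling run. These shares are over all abundances, and calls were more common among abundant microRNAs. As deposited, 13 of the 52 microRNAs at 1000 CPM or more were called higher and 10 lower. In sgCYRANO the same centring moved the fold changes by 0.022 and no strand passed.

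A scaling factor common to all libraries of a group cancels in the ratio of miR-26a-5p to miR-101-3p. Factors that differ between its libraries do not cancel, and the change of the ratio restates the fold changes of both strands. The ratio was 18.4 in sgNT and 21.2 in sgCYRANO, and 18.6 in WT and 22.9 in ZSWIM8 KO. Both control groups thus gave close ratios and both perturbed groups higher ones. The ratio has no value per library, and its change was not tested.

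For the miR-26 guide strands after loss of ZSWIM8, the authors' deposited table held 0.071 ± 0.07 for miR-26a-5p (adjusted p = 0.652) and 0.17 ± 0.09 for miR-26b-5p (adjusted p = 0.266). The sign of miR-26a-5p turned to -0.058 with median centring and -0.079 with the trimmed mean. Its interval as deposited was 0.951 to 1.16 times the WT level, and that of miR-26b-5p 0.998 to 1.27 times. Of the passenger strands, miR-26a-2-3p had 66.5 CPM in WT and 47.3 CPM in the knockout, for which the authors' deposited table holds -0.49 ± 0.25 (unadjusted p = 0.0457, adjusted p = 0.239). In the authors' deposited table the others had -0.12 ± 0.30 for miR-26b-3p (adjusted p = 0.880), -0.18 ± 0.40 for miR-26a-1-3p (adjusted p = 0.873) and -0.00030 ± 0.95 for miR-101-2-5p (adjusted p = 0.9997).

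**Figure D3:**
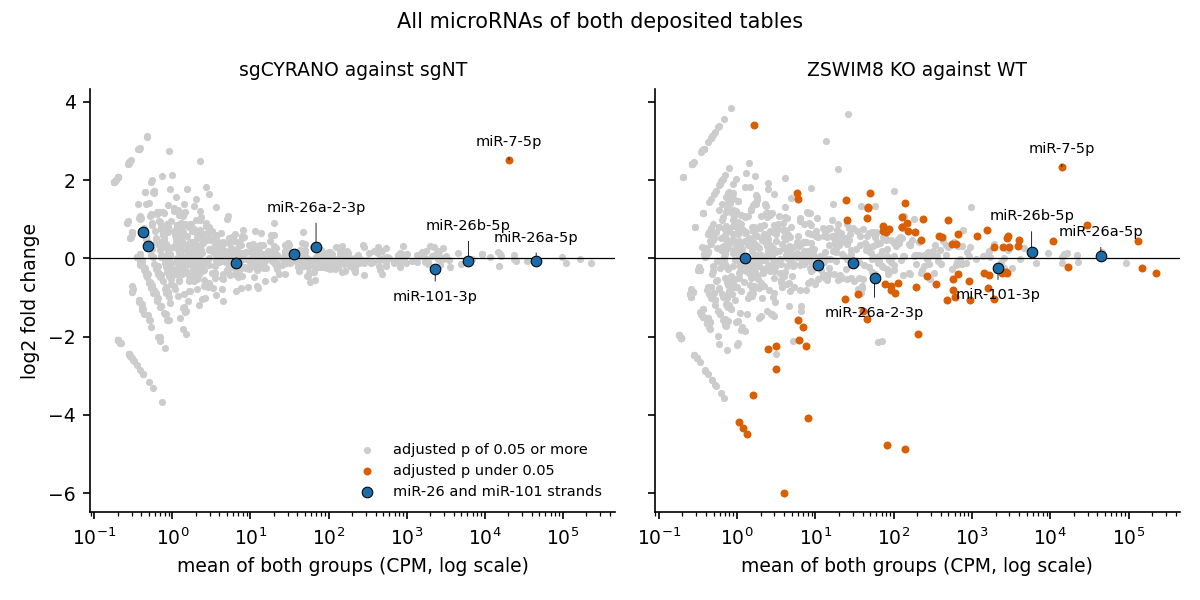
Deposited log2 fold change (y axis) against the mean of both groups in CPM (x axis, log scale) for the 837 and 868 microRNAs of the 2 tables, with calls in orange and miR-26 and miR-101 strands in blue. No blue point is a call, and the abundant strands lie close to 0 beside miR-7-5p at 2.52 and 2.35.

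**Figure D4:**
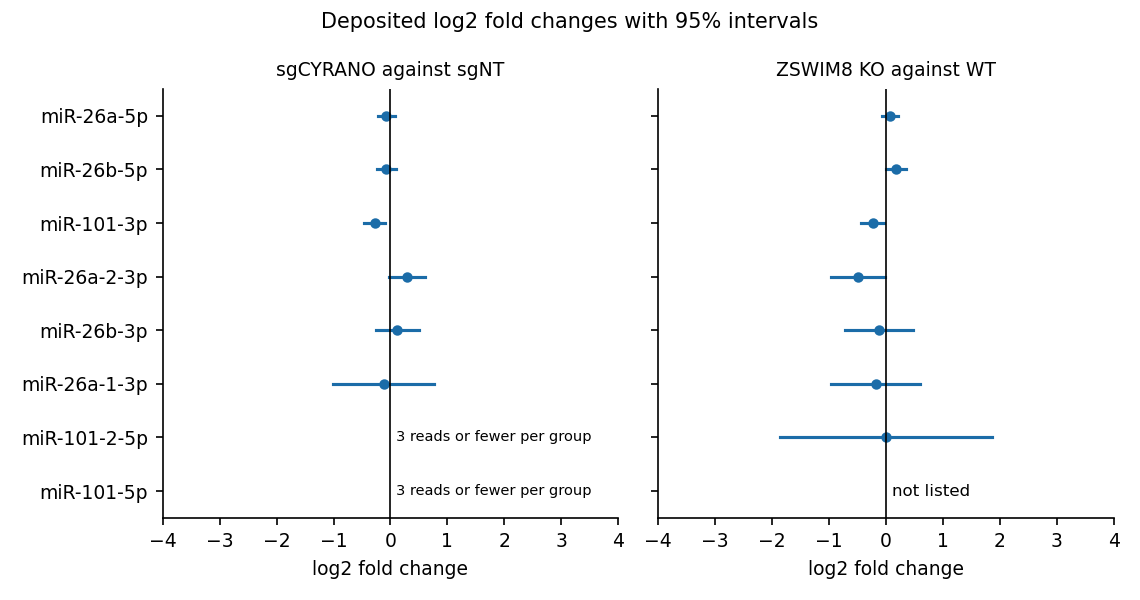
Deposited log2 fold changes (points) with 95% intervals (bars) of 6 strands in sgCYRANO and 7 in ZSWIM8 KO; the miR-101 5p strands in sgCYRANO rest on 3 reads or fewer per group and have no bar, and miR-101-5p was not listed for ZSWIM8 KO. The intervals of miR-101-3p lie below 0 in both panels, from -0.46 to -0.10 and from -0.44 to -0.03.

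**Figure D5:**
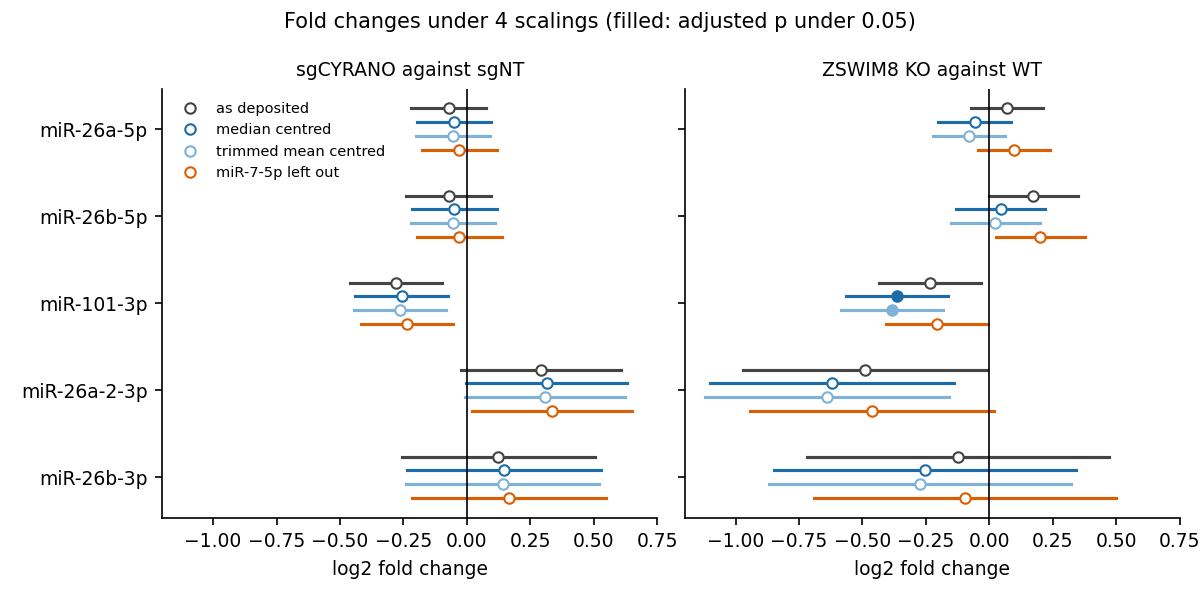
Log2 fold changes with 95% intervals of the 5 most abundant strands as deposited and under 3 other scalings, filled where the adjusted p is under 0.05. The filled points are miR-101-3p in ZSWIM8 KO at -0.36 and -0.38.

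Both comparisons share no library, so the difference between their fold changes was tested for the 753 microRNAs in both tables (normal test with Benjamini-Hochberg adjustment, 6.64% called, or 7.44% with errors from the deposited F). None of the 7 shared strands passed. For miR-101-3p the fold change in ZSWIM8 KO minus that in sgCYRANO was 0.046 ± 0.14 (adjusted p = 0.930), an interval that still allows a moderate difference. The largest difference against its error was that of miR-26a-2-3p, at -0.78 ± 0.29 (unadjusted p = 0.00772, adjusted p = 0.0883). This strand passed with only microRNAs at 10 CPM or more tested (adjusted p = 0.0413, beside 19.7% called) and when each table was centred on its median (-0.93, adjusted p = 0.0248, beside 6.91% called). The differences were 0.14 ± 0.10 for miR-26a-5p (adjusted p = 0.585) and 0.25 ± 0.12 for miR-26b-5p (adjusted p = 0.323).

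Target-directed decay acts on the loaded guide strand and not on the hairpin, so the strands of each hairpin were set against each other. In sgCYRANO 0.498% of 201 hairpins passed the test of their arms and in ZSWIM8 KO 5.26% of 209, and no miR-26 or miR-101 hairpin was among them. The test takes the errors of both arms as independent, though they come from the same libraries, so its p-values and shares are approximate. With both arms at 10 CPM or more the shares were 2.86% and 18.3%, and with errors from the deposited F in sgCYRANO 0.995%, again with no miR-26 or miR-101 hairpin. The change of miR-26a-5p less that of miR-26a-2-3p was -0.36 ± 0.18 in sgCYRANO (normal test, unadjusted p = 0.0404, adjusted p = 0.969) and 0.56 ± 0.26 in ZSWIM8 KO (unadjusted p = 0.0284, adjusted p = 0.325). Since miR-26a-5p also comes from MIR26A1, this is no comparison within 1 hairpin. MIR26B yields both its strands alone, and its 5p less 3p change was -0.20 ± 0.21 in sgCYRANO (adjusted p = 0.969) and 0.30 ± 0.32 in ZSWIM8 KO (adjusted p = 0.886). For miR-101 the 5p strands rest on too few reads for the comparison.

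The letters of the miR-26 and miR-101 seeds were also looked for in CYRANO, annotated as OIP5-AS1, in its 8829-base transcript OIP5-AS1-201. TACTTGA occurred 1 time, at positions 8179 to 8185, and GTACTGT 0 times, on the transcript's strand. Among 1116 genes with a transcript of at least this length, 38.0% held TACTTGA and 33.0% held GTACTGT in the first 8829 bases. The complement of the miR-7-5p seed, GTCTTCC, occurred 3 times. In the 30 bases before each match, the longest run complementary to the microRNA from base 9 onward was 7 bases for miR-26a-5p. For miR-7-5p it was 14 bases at the match at 2887 to 2893, 5 at 724 to 730 and 3 at 8167 to 8173. The stretches around the miR-26 match and the miR-7 match at 2887 to 2893 are printed with the seed match in capitals. The miR-7 match at 8167 to 8173 lies inside the miR-26 stretch, in lower case. The run of 14 bases lies inside the miR-7 stretch, and the run of 7 bases, at 8150 to 8156, lies before the start of the miR-26 stretch.
OIP5-AS1 match for miR-26: atatagtttgtcttccccaatTACTTGAt
OIP5-AS1 match for miR-7: aagaacaacaaaatcaccaatGTCTTCCa

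Other microRNAs reported to act on EZH2 were taken from a list of 22 names, of which 12 were listed in each table. Several of the 12 are let-7 strands or their relative miR-98-5p, so the 12 are not independent entries. In sgCYRANO none of the 12 passed as deposited (0 higher and 0 lower, edgeR quasi-likelihood test), beside 1 call among all 837 microRNAs. With so few calls in all, this says little about the list. An unadjusted p under 0.05 was held by 1 of the 12, beside 49 of all 837 microRNAs, or 38 of the 299 at 10 CPM or more. The median log2 fold change was 0.094, against 0.013 over all microRNAs and -0.022 over those at 10 CPM or more. In the authors' deposited table miR-98-5p, a let-7 relative, had 0.40 ± 0.18 (adjusted p = 0.816), let-7i-5p 0.15 ± 0.11 (adjusted p = 0.980) and miR-92b-3p 0.11 ± 0.09 (adjusted p = 0.980). For the abundant strands miR-30d-5p and miR-25-3p the authors' deposited table holds 0.079 ± 0.08 and 0.12 ± 0.08 (both adjusted p = 0.980).

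In ZSWIM8 KO 3 of these 12 rose, 1 fell and 8 did not pass, beside 4.72% of all microRNAs called higher and 5.18% called lower. The median log2 fold change of the 12 was 0.40, against 0.080 over all microRNAs and 0.13 over those at 10 CPM or more. All of the 12 belong to this more abundant set. Calls were more common there, with 38 of its 304 microRNAs higher and 32 lower as deposited. The authors' deposited table gave 0.86 ± 0.09 for miR-30d-5p (21115 to 38430 CPM), 0.56 ± 0.13 for let-7g-5p (928 to 1369 CPM) and 0.32 ± 0.10 for let-7f-5p (3402 to 4261 CPM), and -0.23 ± 0.08 for miR-25-3p (17966 to 15333 CPM). Centred on the median, 2 were higher and 2 lower, since let-7f-5p no longer passed and let-7b-5p passed as lower, beside 3.46% of all microRNAs called higher and 7.14% lower. With microRNAs under 10 CPM left out 4 were higher and 2 lower, beside 20.4% called higher and 13.2% lower. With CPM taken without miR-7-5p 3 were higher and 0 lower, beside 6.34% of all microRNAs called higher and 4.72% lower (11.1% in all). On 4 denominator degrees of freedom none passed.

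By the pair of log2 fold changes in both comparisons, the microRNAs at 100 CPM or more nearest to miR-101-3p were miR-30e-5p (Euclidean distance 0.053), miR-548o-3p (0.077) and miR-10a-3p (0.083), among 134 candidates. For miR-26a-5p they were miR-10a-5p (0.0064), miR-142-5p (0.017) and miR-106b-5p (0.019), and for miR-26b-5p miR-126-3p (0.0022), miR-484 (0.022) and miR-99b-3p (0.066). Those nearest to miR-26a-2-3p were miR-223-5p (0.11), miR-30e-3p (0.13) and miR-942-5p (0.14) among 135 candidates. The authors' deposited table called miR-223-5p and miR-30e-3p lower in ZSWIM8 KO, at -0.38 and -0.37 on the log2 scale. For the scarcer strands the nearest were miR-140-5p, miR-92b-3p and miR-941 (miR-26b-3p) and miR-378a-5p, miR-629-5p and miR-1273h-3p (miR-26a-1-3p), at distances of 0.011 to 0.074. The measure rests on 2 values for each microRNA and describes no more than that.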

How the data were processed

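Per the labels' protocols, small-RNA libraries came from a NEB kit on RNA from the miRNeasy Mini kit. The build hg19 and the tools STAR, featureCounts, edgeR, bcl2fastq and FastQC 0.11.2 stand in the submitters' processing notes, without roles or order. Per the file headers, the authors deposited 2 log2 values for each microRNA, the fold change and the mean CPM, with an F statistic (here a score), a p-value and an adjusted p-value. Values per library were not analysed here, so the deposited edgeR tests are the main result. The sources used here do not give the authors' filter on low values or how shared reads were counted.

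Group means were solved from the mean log2 CPM (prior count 2) and the log2 fold change (prior count 0.125), and sum to 1000000 in each of the 4 groups, so the values had been scaled to library totals. Because 1 read adds a set CPM to its library, small group means take discrete values, and 3 step sizes for a group gave every mean under 1 CPM to within 0.0015 CPM (220, 227, 241 and 208 means in sgNT, sgCYRANO, WT and ZSWIM8 KO). This gave group totals of 5490000, 5290000, 3810000 and 7060000 reads. The recovery treats the CPM as the counts given to the test, which the sources used here do not state. If that holds, the counting error of the test is that of 1000000 reads for every library.

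Standard errors were obtained by dividing each log2 fold change by the normal quantile matching its deposited p-value, and give the 95% intervals. Differences between comparisons or arms were divided by their combined error and read on the normal distribution, adjusted by Benjamini-Hochberg over all microRNAs or hairpins. The combined error takes both values as independent. The arms of a hairpin were read in the same libraries, so the errors of arm differences are approximate. The recovered means, the intervals and the difference between comparisons were tested on simulated data, and the test of arms was not. The simulated p-values came from a normal test, so the simulation does not check errors implied by the deposited quasi-likelihood p-values. Matching by name found 762 of 837 and 786 of 868 microRNAs in RefSeq. Hairpin arms were paired by RefSeq gene, by sequence or by name. Named microRNAs are all miR-26 and miR-101 strands, of the list of EZH2-related microRNAs up to 4 with the smallest p in each table and the 2 most abundant, seed relatives, the 3 of nearest fold changes (not for miR-101 5p strands, with too few reads), the neighbours in rank, and miR-7-5p. miR-144-3p is also on the EZH2 list, and let-7b-5p was named after its values were seen. The strands and lists were chosen with earlier results of these data known. Analyses used Python 3.11.15, pandas 2.3.3, numpy 2.4.6 and scipy 1.17.1. Alternatives were centring on the median or a 30% trimmed mean at 10 CPM or more, CPM without miR-7-5p, filters at 10 and 1 CPM, 4 denominator degrees of freedom, no prior count and errors from F.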

Additional observations from a re-analysis of the deposited data

How the results depend on the processing

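No paired analysis was possible because the values used here are comparisons of groups, with no value per library, and for the same reason no library could be left out. In ZSWIM8 KO, 1 miR-26 or miR-101 strand passed, against 0 as deposited, with centring on the median (miR-101-3p, -0.36) or on the trimmed mean (-0.38). Under these settings miR-26a-5p turned from 0.071 to -0.058 and -0.079, and with CPM taken without miR-7-5p miR-101-2-5p turned from -0.00030 to 0.027. None of these turned values passed. With median centring, the difference between both comparisons turned to -0.11 for miR-101-3p and -0.0084 for miR-26a-5p, neither of which passed, and that of miR-26a-2-3p passed at -0.93, as it did at -0.78 with 10 CPM or more only. Fewer microRNAs are tested in that last setting. On 4 denominator degrees of freedom 3 of 868 microRNAs passed in ZSWIM8 KO, against 86. In sgCYRANO 2 hairpins had differing arms, against 1, with errors from F and with both arms at 10 CPM or more, and neither was a miR-26 or miR-101 hairpin. The remaining 162 recomputed values kept their direction and side of the threshold, or for counts stayed within 1.5 times. The cause of the shifts was not tested. Depth limits the miR-101 5p strands, which rest on 2 to 9 reads per group.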

Other observations

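miR-26a-5p stood between abundant strands of other families. In the first table its neighbours in mean CPM were miR-146b-5p, an inflammation-linked microRNA, at 98387 CPM and miR-126-3p, an endothelial and haematopoietic microRNA, at 34529.9 CPM. The authors' deposited table gave 0.045 ± 0.07 and -0.070 ± 0.08 for these in sgCYRANO. In the second table the neighbours were miR-126-3p at 45501 CPM and miR-30d-5p at 29772 CPM, with 0.17 ± 0.07 and 0.86 ± 0.09 in the authors' deposited table.

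miR-101-3p was flanked by miR-92b-3p, of the miR-25 family, and miR-186-5p in the first table, at 2403 and 2279 CPM, and by miR-92b-3p and miR-532-5p in the second, at 2319 and 1930.5 CPM. In the authors' deposited table these had 0.11 ± 0.09 and 0.098 ± 0.09 in sgCYRANO, and -0.081 ± 0.10 and 0.30 ± 0.11 in ZSWIM8 KO. Of these neighbours miR-30d-5p and miR-532-5p passed an adjusted p of 0.05.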
